A study of Homo sapiens with 15 samples.

Results

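The day 2 library of a cardiac differentiation of human embryonic stem cells was compared with the day 1 library, across the step from the primitive streak stage to early mesoderm. The genes described are those with an FPKM (the count of a gene scaled by its exonic length and the total count of the library) of at least 1 in either library, which left 14582 of 60605 genes, of which 11678 were protein-coding. These 2 libraries are among 15 in the series, and there was 1 library per day. Both came from H1, an established human embryonic stem cell line, of genotype WT, and the labels give both the treatment mesendoderm spontaneous differentiation. Cells grown on Matrigel had been switched on day 0 to a medium with CHIR99021, an inhibitor of the kinase GSK3 that activates WNT signalling. From day 1 the medium held insulin and no CHIR99021, and the culture was first divided into arms on day 2. The withdrawal of CHIR99021, the addition of insulin and the passage of time therefore fall together in this comparison and cannot be told apart. Whether the day 1 library was taken before or after the change of medium was not stated. The Day-0 library, of the same line and with the same treatment label, and the Day-3-NP-ctrl library, of cells left in their wells with no further inducer, are given beside some genes to place days 1 and 2 in the course.

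During gastrulation, epiblast cells pass through the primitive streak, where WNT and NODAL signals and the T-box factors TBXT and EOMES act, and leave it as mesoderm or definitive endoderm. Cells that leave as mesoderm take up MESP and TBX6 factors, lose epithelial contacts through the SNAI repressors and come under NOTCH, FGF and BMP signals. In cultured stem cells a pulse of WNT activation is commonly used to pass through the same stages.

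The day 1 library held 18438286 counts and the day 2 library 20250115, with 26565 and 28214 genes above 0. For a gene with 1 kilobase of exon, 3 counts corresponded to an FPKM of 0.163 on day 1 and 0.148 on day 2. Genes of the mitochondrial genome took 5.65% of the counts on day 1 and 4.63% on day 2. Differences are given as log2(FPKM + 1) on day 2 minus day 1, a scale that understates changes of low genes, and a gene was called, written as rose or fell, when the difference was at least 1 in size. Ratios of FPKM carry exact 95% intervals that cover counting error only. With 1 culture measured on each day no p-value can be given, and variation between cultures was not measured. In bulk samples, fewer cells of a type and less RNA per cell cannot be told apart.

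More genes rose than fell. Of the 14582 genes, 920 rose (6.31%) and 564 fell (3.87%), while the differences of 69% of the genes were within 0.5 of 0 on the log2 scale. Of the protein-coding genes, 508 rose (4.35%) and 308 fell (2.64%), and these shares are the background for the gene lists below. A gene under an FPKM of 1 on day 1 passes the filter only through its day 2 level, so counts and medians over the measured members of a list are descriptions and support nothing. Every gene below that rose from an FPKM under 1 passed in this way. The median difference was 0.01 over all genes and -0.01 over protein-coding genes. A difference of at least 2 was found in 159 genes that rose and 52 that fell. Among the genes that rose were 119 long non-coding RNAs and 293 genes of other biotypes, and 275 of the 920 had under 30 counts in both libraries, 272 of them not protein-coding. Among the 564 genes that fell, 198 had under 30 counts in both libraries, 195 of them not protein-coding. At the border of the filter, 457 genes had a highest FPKM of 1.00 to 1.1, of which 68 were called, and 462 genes lay at 0.90 to 0.99. ARSD, at 0.86 on day 1 and 1.00 on day 2, is an example just inside, and ZNF441, at 0.72 and 0.99, one just outside.

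**Figure D1:**
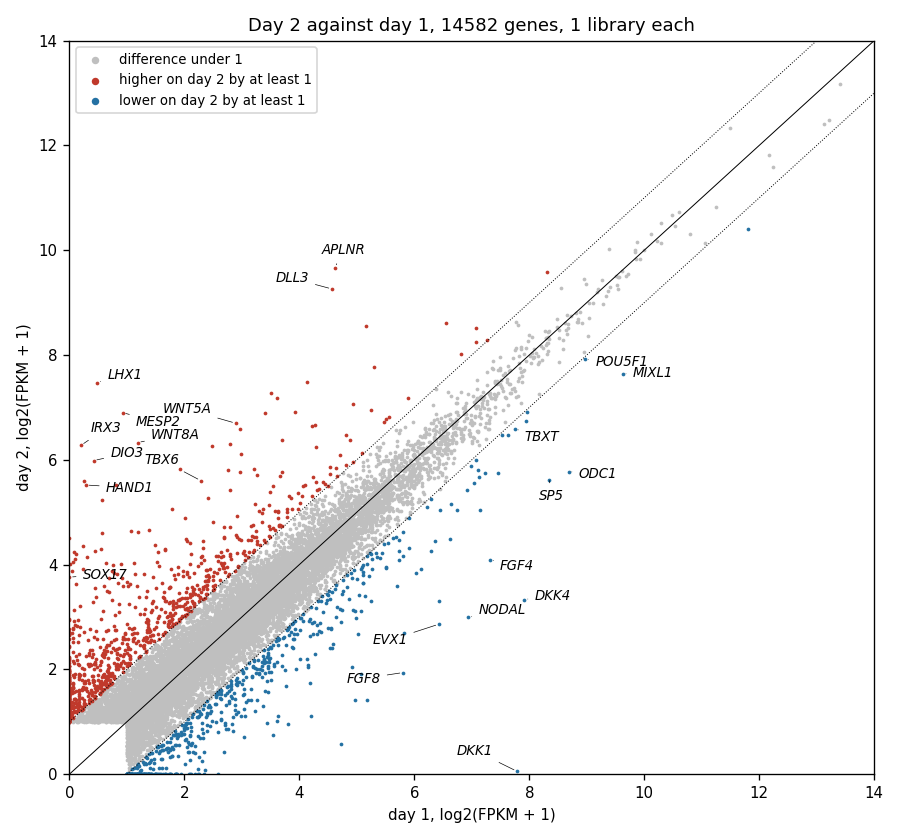
Level of each of the 14582 genes in log2(FPKM + 1) on day 1 (horizontal axis) and day 2 (vertical axis), 1 library each; each point is a gene, the solid line marks equal levels and the dotted lines a difference of 1. LHX1, IRX3 and MESP2 stand near 0 on day 1 and far above the diagonal, and DKK1 stands at the foot of the plot on day 2.

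Several of the largest rises were in homeobox and other transcription factors that were under an FPKM of 1 on day 1. LHX1 (ENSG00000273706, chr17:36936785-36944612, GRCh38), a LIM homeobox factor of the streak and early mesendoderm, rose from an FPKM of 0.40 (36 counts) to 177 (17603 counts), a ratio of 445 (322 to 636). It was at 0.37 on day 0 and at 18.3 in Day-3-NP-ctrl, so day 2 was the highest of these 4 libraries. IRX3 (ENSG00000177508, chr16:54283304-54286787), an Iroquois homeobox factor, rose from 0.15 to 76.5 FPKM, a ratio of 517 (262 to 1199). IRX5, which lies near it on chromosome 16, rose from 3 counts to 1032, a ratio of 313 (107 to 1521). Unlike LHX1, IRX3 was at a like level in Day-3-NP-ctrl, at 68.7 FPKM. MESP2, a factor of presomitic mesoderm, rose from 0.90 to 118 FPKM. HAND1, a factor of lateral and cardiac mesoderm, rose from 0.22 to 44.9 FPKM and stood at 671 in Day-3-NP-ctrl.

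Receptors, ligands, enzymes and structural proteins were also among the 15 largest rises. APLNR, the receptor of apelin and ELABELA that marks mesoderm progenitors, rose from 23.5 to 811 FPKM, a ratio of 34.5 (32.8 to 36.2), and on day 2 it stood above every other member of the gene lists below except GAPDH. DLL3, a divergent NOTCH ligand of presomitic mesoderm, rose from 22.7 to 612 FPKM. WNT8A rose from 1.28 to 79.5 FPKM. The collagen and elastin cross-linking enzyme LOX rose from 0.20 to 47.6 FPKM and was at 4.52 in Day-3-NP-ctrl. DIO3, which inactivates thyroid hormone, rose from 0.34 to 62.4 FPKM and was also low again in Day-3-NP-ctrl, at 4.74. FLNC, an actin cross-linker of muscle, rose from 0.75 to 45.1 FPKM, the secreted protease ADAMTS15 from 0.48 to 36.8 and the lipase LIPG from 0.48 to 23.3. SNAI2, a repressor of epithelial genes, rose from 0.18 to 19.5 FPKM and the protocadherin PCDH19 from 0.08 to 17.3.

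A stricter reading of switching on, from an FPKM under 1 on day 1 to at least 5 on day 2, was met by 54 protein-coding genes. By fold the first of them was SEMA6D, a transmembrane semaphorin, which had 1 count on day 1 and 2625 on day 2, a ratio of 2390 with a wide counting interval (429 to 94441). IRX3, LHX1, IRX5, LOX, PCDH19, HAND1 and DIO3 were also among the first 10. CXCR4, a chemokine receptor of migrating endoderm and mesoderm, went from 3 counts to 728, or from 0.07 to 16.3 FPKM. SOX17, a factor of definitive endoderm, had 0 counts on day 1 and 597 on day 2, at least 181-fold higher when day 1 is set to 3 counts. The reverse, from at least 5 to under 1, was met by 11 protein-coding genes.

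DKK1 fell by far more than any other gene in the comparison. This secreted inhibitor of WNT receptors (ENSG00000107984, chr10:52314281-52318042) had 9000 counts on day 1, an FPKM of 220, and 2 counts on day 2, an FPKM of 0.04, which is 4942-fold lower with a counting interval of 1368 to 40816. It had been at 0.13 on day 0 and stood at 2.91 in Day-3-NP-ctrl, so its high level was seen on day 1 alone among these 4 libraries. DKK4, a related inhibitor, fell from 241 to 9.09 FPKM, 26.5-fold lower (22.6 to 31.1). It was listed at 0 on day 0 and in Day-3-NP-ctrl.

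The other large falls held streak signals and several enzymes. NODAL (chr10:70431936-70447951), the TGF-beta family ligand of the streak, fell from 122 to 6.96 FPKM, 17.5-fold lower (15.6 to 19.8). FGF8 fell from 55.0 to 2.84 FPKM, FGF4 from 159 to 16.1, and the activin and BMP antagonist FST from 85.2 to 8.86. Of homeobox genes of the posterior streak, EVX1 fell from 85.1 to 6.28 FPKM, CDX1 from 30.2 to 1.67 and NKX1-2 from 29.1 to 3.12. On day 0 EVX1 was at 0.00 and CDX1 at 0.10, whereas NKX1-2 was at 47.0, above its day 1 level. ODC1, the rate-limiting enzyme of polyamine synthesis and a known target of MYC, fell from 410 to 53.8 FPKM. MYC itself was at 9.29 and 5.66, 1.64-fold lower (1.47 to 1.84), a difference of -0.63 that was not called. Whether MYC had a part in the fall of ODC1 was not tested. The proprotein convertase PCSK1 fell from 35.3 to 1.66 FPKM, the hyaluronan synthase HAS3 from 17.5 to 1.17 and the matricellular THBS2 from 13.01 to 0.95. LRAT, which esterifies retinol, fell from 10.6 to 0.69 and FAM167A from 25.5 to 0.50. On day 0 HAS3 and LRAT had been higher than on day 1, at 23.5 and 26.4, and PCSK1, THBS2 and FAM167A lower. Of the smaller genes that went from at least 5 to under 1, the prostaglandin-inactivating HPGD was at 7.17 and 0.64, VAT1L at 5.42 and 0.35, the kinase-like CAMKV at 6.20 and 0.78, THEM6 at 5.74 and 0.81, GADD45G at 5.62 and 0.82, and the integrin activator FERMT1 at 5.56 and 0.92.

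**Figure D2:**
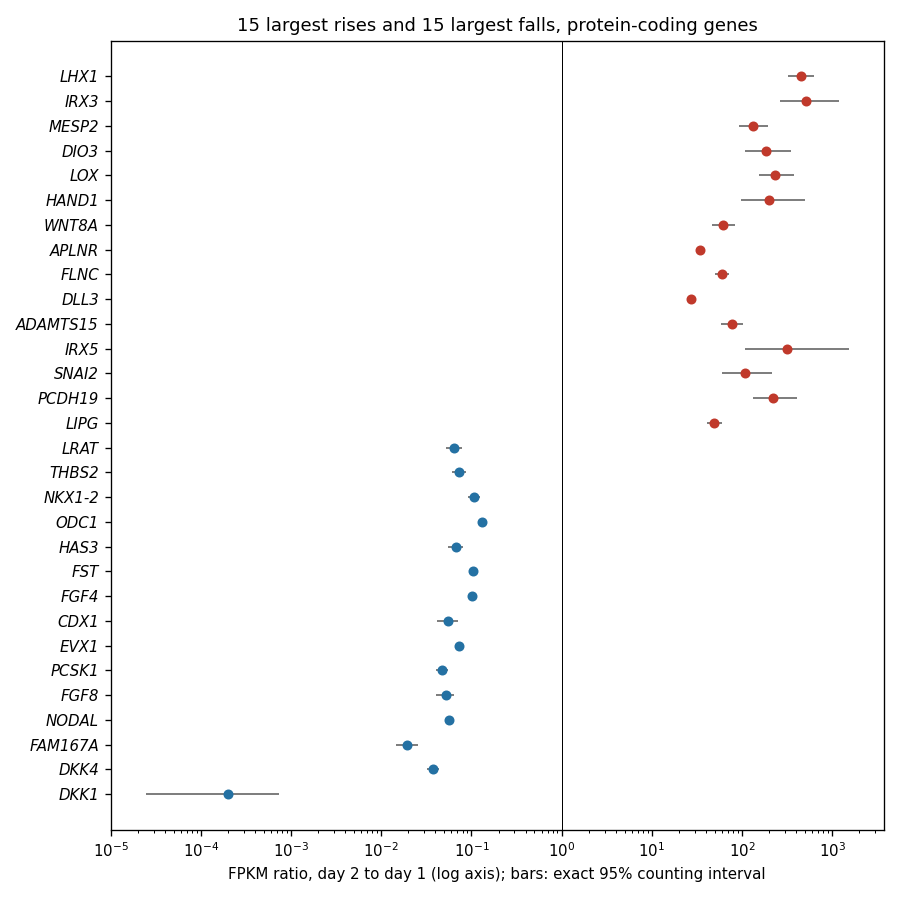
Ratio of FPKM, day 2 to day 1, on a log axis for the 15 protein-coding genes with the largest rise and the 15 with the largest fall in log2(FPKM + 1), in that order from the top; bars are exact 95% intervals for counting error, and the vertical line marks a ratio of 1. DKK1, with 2 counts on day 2, lies apart from the other falls, and IRX3 and LHX1 have the largest differences and ratios of 517 and 445.

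The 14 primitive streak markers all passed the filter and did not move as 1 group: 7 fell, 3 rose and 4 were not called, with a median difference of -0.87. The factors of the streak core stayed present on day 2. TBXT, the defining T-box factor, fell from 214 to 95.3 FPKM, and MIXL1, a homeobox factor of mesendoderm, from 789 to 199. SP5, a WNT-induced repressor, fell from 325 to 47.7. EOMES, at 169 on day 1 and 128 on day 2, and GSC, an organizer homeobox gene at 60.1 and 39.8, were lower but not called. FOXH1, the DNA-binding partner of SMADs in NODAL signalling, was at 135 and 92.9, and WNT3 at 22.02 and 28.4. NODAL, FGF8, FGF4 and EVX1, given above, fell more than TBXT and MIXL1 did. LHX1 and GATA6 were among those that rose. GATA6, a factor shared by endoderm and cardiac mesoderm, rose from 11.6 to 50.6 FPKM, a ratio of 4.34 (4.03 to 4.69). The summed FPKM of the 14 markers was 2184 on day 1 and 1014 on day 2.

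Markers of nascent mesoderm moved the other way, with 13 of 17 measured members rising and none falling, a median difference of 3.32. Of these, MESP2, HAND1, PDGFRA and RIPPLY2 passed the filter only through day 2, so the filter favoured a rise in them. MESP1, the earliest factor of cardiovascular mesoderm, was already at 12 FPKM on day 1 and rose to 81.8, a ratio of 6.82 (6.23 to 7.49). Its neighbour on chromosome 15, MESP2, was at 0.90 on day 1, and because MESP1 and MESP2 are similar in sequence the split of reads between them is uncertain. TBX6, a T-box factor of paraxial mesoderm, rose from 3.88 to 47.6 FPKM. FOXC1 and FOXC2, forkhead factors of paraxial and cardiovascular mesoderm, rose from 11.3 to 144 and from 1.1 to 23.8. PDGFRA, a receptor used to mark cardiac mesoderm, rose from 0.36 to 18.1 FPKM, whereas KDR, the VEGF receptor used with it, was at 44.1 and 62.8 and was not called. The hyaluronan synthase HAS2 rose from 6.82 to 94.8, the reverse of HAS3. SNAI1 rose from 17.7 to 99.7, the cadherin CDH11 from 3.43 to 10.5 and the segmentation gene RIPPLY2 from 0.08 to 3.75. MSGN1, at 1.62 and 2.07, TCF15, at 2.53 and 2.11, and FOXF1, at 3.34 and 7.00, were not called. APLN, TCF21 and MEOX1 stayed under the filter. The summed FPKM of the list was 156 on day 1 and 2186 on day 2, of which APLNR and DLL3 made the largest parts.

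**Figure D3:**
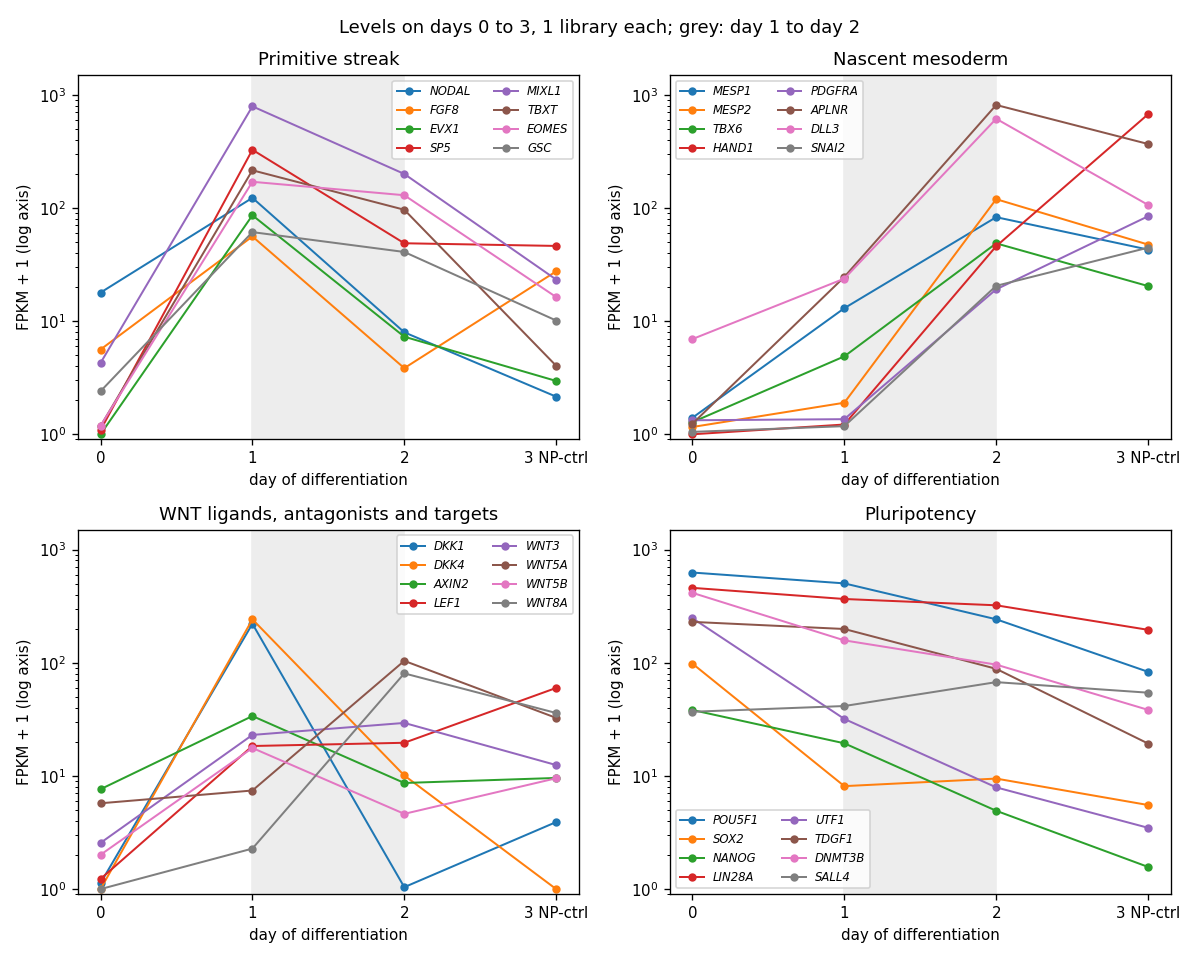
FPKM + 1 on a log axis for 8 genes in each of 4 groups on days 0, 1, 2 and 3 (NP-ctrl), with 1 library per day and the step from day 1 to day 2 shaded. NODAL, FGF8 and EVX1 drop across the shaded step while EOMES and GSC change little, the mesoderm genes climb, DKK1 and DKK4 peak on day 1, and POU5F1 declines from 501 to 241 FPKM while SOX2 stays near 8.

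Early cardiac factors were measured in part. Of 19 cardiac progenitor markers 12 passed the filter, and 7 of these rose and none fell (median 1.21). Beside HAND1 and GATA6 these were TBX3, from 4.03 to 18.9 FPKM, the homeobox cofactors MEIS1, from 0.05 to 2.36, and MEIS2, from 0.05 to 1.39, and the factors TBX20, from 0.03 to 1.59, and ISL1, from 0.04 to 1.46. HAND1 and the last 4 passed only through day 2, so the filter favoured a difference in 5 of these 7. GATA4, at 24.2 and 40.7, was not called, and NKX2-5, HAND2, TBX5, MEF2C, MYOCD, HOPX and NKX2-6 stayed under an FPKM of 1 on both days. Of 18 contractile and cardiac muscle genes 6 passed, and only NPPB was called, from 0 counts to 22, or 1.53 FPKM. MYL7, with 1 count on day 1 and 30 on day 2, or 0.04 and 1.02 FPKM, was just under the call at 0.96. TNNT2 was at 0.01 and 0.07, and the summed level of the 18 genes was 10.1 and 15.3 FPKM.

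The markers of other lineages gave a mixed picture. Of 14 definitive endoderm markers 8 passed the filter, of which SOX17, CXCR4, GATA3 and OTX2 rose and FOXA2 fell, from 12.8 to 5.74 FPKM. SOX17, CXCR4 and GATA3 passed only through day 2. CER1, a secreted antagonist of NODAL, WNT and BMP from anterior endoderm, was at 200.2 and 174, and HNF4A was at 0 on both days. OTX2, an anterior factor that is also on the neural list, rose from 10.6 to 44.01 FPKM. On the neural ectoderm list 7 of 13 passed and 2 rose, OTX2 and SIX3 (from 3.10 to 10.1), while PAX6 was listed at 0 on both days and SOX1 was at 0.14 and 0.03. Of 14 amnion and trophoblast markers 7 passed and 4 rose, and all 4 of these passed only through day 2. These were HAND1, ISL1, GATA3, from 0.13 to 5.32 FPKM, and GATA2, from 0.50 to 3.81, all of which other tissues also use. VTCN1, ELF5, CGA and CGB5 were at 0 on both days. GABRP, at 0.74 and 1.81, also passed only through day 2 and was not called. Its difference of 0.69 was 1.108 on the TPM scale and 1.185 with a pseudocount of 0.1, where it would count as a rise. The summed level of this list was 18.4 FPKM on day 1 and 67.7 on day 2. Of 14 endothelium and blood markers 3 passed, none rose and SOX18 fell, from 9.85 to 3.71, with PECAM1 and CDH5 at 0 on both days and a summed level of 17.6 and 16.2. The part of cells of other lineages in the changes above was not tested.

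Several WNT feedback genes fell. Of 20 measured members of the WNT feedback and target list 8 fell, DKK1, DKK4 and SP5 among them, and none rose, with a median difference of -0.60. AXIN2, the scaffold of the beta-catenin destruction complex and a standard readout of WNT activity, fell from 32.8 to 7.66 FPKM, 4.28-fold lower (3.96 to 4.63), close to its 6.63 on day 0. The secreted inhibitor APCDD1 fell from 16.8 to 3.26, the dishevelled-binding NKD1 from 10.3 to 3.67, the nuclear effector TCF7 from 9.41 to 3.61 and the receptor TNFRSF19 from 3.04 to 0.15. Other members did not follow. LEF1, at 17.4 and 18.6, TCF7L1, at 16.7 and 19.4, SP8, at 26.8 and 17.7, ZNRF3, at 7.12 and 5.65, NOTUM, at 6.76 and 4.92, and CCND1, at 91.5 and 56.5, were not called.

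Among the 19 WNT ligands 7 passed the filter, and their order changed. WNT5A, a ligand mostly linked to planar polarity and cell movement, rose from 6.43 to 103 FPKM, a ratio of 16.0 (14.9 to 17.2). WNT8A, a ligand of gastrulating mesoderm, rose 62.1-fold (46.6 to 84.7), WNT4 from 0.14 to 6.01 FPKM and WNT11 from 0.71 to 2.58. WNT4 and WNT11 passed the filter only through day 2. WNT5B fell from 16.6 to 3.62, and WNT3 and WNT3A, at 0.96 and 1.22, were not called. WNT3 was the highest ligand on day 1, and WNT5A and WNT8A were the highest on day 2. Of 22 measured antagonists and receptors 5 rose and 4 fell (median 0.16). The receptor FZD2 rose from 8.22 to 56.1, FZD7 from 43.3 to 104 and FZD8 from 2.38 to 7.43, while FZD10 fell from 7.19 to 1.38. The coreceptors LRP5, at 16.6 and 16.3, and LRP6, at 9.04 and 11.3, were not called. SFRP1, which binds WNT ligands, rose from 22.1 to 57.3, SFRP2 fell from 246 to 106, and the WNT amplifier RSPO3 rose from 2.61 to 8.13.

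Factors of the TCF/LEF family bring beta-catenin to the letters CTTTGAT or CTTTGTT, so the windows of 250 bases before the gene start are shown for 3 genes that fell and hold this motif and for HAND1, which rose and also holds it. The sequences are from RefSeq on GRCh38.p14 and are written 5′ to 3′ on the strand of the gene, with the motif in capitals. HAND1 lies on the minus strand and carries the motif as its reverse complement. DKK1 (chr10:52314031-52314280), SP5 (chr2:170715087-170715336), MIXL1 (chr1:226223414-226223663) and HAND1 (chr5:154478228-154478477) read as follows.
DKK1: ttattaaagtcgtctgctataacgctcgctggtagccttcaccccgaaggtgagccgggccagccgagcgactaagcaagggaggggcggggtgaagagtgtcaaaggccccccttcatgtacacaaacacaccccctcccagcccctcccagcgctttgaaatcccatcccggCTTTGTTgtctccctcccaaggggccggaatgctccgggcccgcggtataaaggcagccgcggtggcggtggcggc
SP5: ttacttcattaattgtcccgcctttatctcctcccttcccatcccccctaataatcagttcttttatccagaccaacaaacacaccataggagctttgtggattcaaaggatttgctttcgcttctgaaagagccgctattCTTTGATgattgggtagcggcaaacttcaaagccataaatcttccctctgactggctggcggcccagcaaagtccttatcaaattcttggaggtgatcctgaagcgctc
MIXL1: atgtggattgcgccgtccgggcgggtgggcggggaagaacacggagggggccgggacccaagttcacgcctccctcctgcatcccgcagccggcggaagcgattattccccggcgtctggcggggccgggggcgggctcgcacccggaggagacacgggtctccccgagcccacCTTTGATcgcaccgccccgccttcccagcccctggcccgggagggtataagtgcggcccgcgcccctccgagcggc
HAND1: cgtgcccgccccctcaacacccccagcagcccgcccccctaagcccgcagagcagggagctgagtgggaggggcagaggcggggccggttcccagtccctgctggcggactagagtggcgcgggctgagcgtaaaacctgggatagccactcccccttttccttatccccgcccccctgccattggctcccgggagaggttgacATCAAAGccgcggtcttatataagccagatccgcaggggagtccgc

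The motif starts 76 bases before the RefSeq start in DKK1 and in MIXL1, 109 in SP5 and 46 in HAND1. The deposited coordinates put the start of MIXL1 at 226223618, inside its window, and that of MESP2 at 89760591, before its window at chr15:89776082-89776331, so these windows lie partly or wholly within the gene as counted. The windows of MESP2 and TBX6 did not hold these letters. DKK1, which is no transcription factor, was added to the genes shown after its values were seen. Of 9454 measured protein-coding genes with a window in the table, 5.89% held the motif on either strand (Wilson 95% interval 5.43 to 6.38). The share was 9.63% (6.39 to 14.3) of 218 genes that fell and 7.01% (4.86 to 10) of 385 that rose. The T-box letters GGTGTGA were in 3.23% of all windows, 3.38% of those of genes that rose and 2.29% of those that fell. In the same order, the GATA letters AGATAA were in 6.44% (5.96 to 6.95), 10.6% (7.95 to 14.1) and 6.88% (4.21 to 11). The SNAI E-box CACCTG was in 20.3% (19.5 to 21.1), 21.8% (18 to 26.2) and 28.9% (23.3 to 35.2). The octamer ATGCAAAT was in 1.72%, 2.86% and 2.75%. The TCF/LEF letters were thus not the only ones whose printed share was higher in a set of called genes than over all windows. These are matches of letters and not sites of binding, and no test was made of the differences in share.

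Of 17 measured members of the NODAL and TGF-beta list 6 fell and 1 rose (median -0.24). Beside NODAL and FST, the ligand GDF3 fell from 30.2 to 7.63 FPKM, the coreceptor TDGF1 from 198 to 87.3 and the inhibitor LEFTY1 from 9.38 to 1.46. The receptors ACVR1B, at 10.5 and 11.4, and ACVR2B, at 13.4 and 17.2, and the transducers SMAD2, at 2.05 and 3.16, and SMAD3, at 5.79 and 6.83, were not called. Neither were LEFTY2, at 1.80 and 0.93, the feedback genes SKIL, at 14.7 and 12.3, and SMAD7, at 11.02 and 10.3, and the ligand TGFB1, at 18.4 and 34.2. CFC1, a coreceptor related to TDGF1, had 0 counts on day 1 and was at 2.30 FPKM on day 2, at least 23.7-fold higher, and at 393 in Day-3-NP-ctrl. LEFTY1 and LEFTY2, as well as CFC1 and its near-identical copy, share sequence, so the split of reads within each pair is uncertain.

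Of 17 measured members of the BMP list 4 rose and none fell (median 0.15). BMP4, the ligand of ventral and lateral mesoderm, rose from 3.26 to 20.2 FPKM, a ratio of 6.20 (5.31 to 7.27), and the secreted modulator BMPER from 0.05 to 4.75. Both were higher again in Day-3-NP-ctrl, at 74.9 and 57.5. The inhibitory SMAD6 rose from 3.73 to 9.69 and ID4 from 2.74 to 8.98. The common BMP response genes ID1, at 97.6 and 108, ID2, at 51.1 and 31.8, and ID3, at 164 and 213, were not called. Neither were BMP2, at 20.3 and 33.6, and BMP7, at 11.7 and 11.2.

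Of 23 measured members of the FGF list 6 rose and 4 fell (median 0.36). The 4 that fell were ligands, FGF8, FGF4, FGF19 (from 97.8 to 21.3 FPKM) and FGF18 (from 1.25 to 0.12), whereas FGF17, at 42.8 and 55.3, was not called and was the highest ligand on day 2. The 6 that rose were receptors and feedback genes. FGFR2 rose from 1.59 to 6.71 and FGFR3 from 7.64 to 21.2. The feedback inhibitors SPRY1 and SPRY4 rose from 5.46 to 22.2 and from 22.2 to 52.4, the ERK phosphatase DUSP6 from 10.1 to 25.5 and the ERK-induced factor ETV5 from 5.73 to 14.4. On day 0 these 4 genes had stood at 15.6, 41.4, 65.5 and 13 FPKM. SPRY2, at 31.6 and 23.7, ETV4, at 60.0 and 31.3, and FGFR1, at 19.8 and 30.5, were not called.

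Of 15 measured genes of NOTCH signalling and of the segmentation clock, the oscillator that spaces the somites, 7 rose and none fell (median 0.88). The ligand DLL1 rose from 10.3 to 155 FPKM, a ratio of 15 (13.9 to 16.2), beside DLL3, and JAG1 from 3.96 to 16.8. The clock gene LFNG, which glycosylates NOTCH receptors, rose from 1.28 to 23.8, HES7 from 3.14 to 20.8 and HES4 from 3.35 to 17.5. All of these but HES4 were lower in Day-3-NP-ctrl than on day 2, with DLL1 at 16.1, DLL3 at 105, LFNG at 3.65 and HES7 at 3.24. The receptors NOTCH1, at 11.6 and 19.3, NOTCH2, at 4.52 and 9.14, and NOTCH3, at 23.2 and 16.8, the ligand JAG2, at 2.89 and 1.68, and the targets HES1, at 24.9 and 28.9, and NRARP, at 25.3 and 14.8, were not called.

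Of 9 measured retinoic acid genes 4 rose and 1 fell (median 0.15). CYP26A1, which degrades retinoic acid, rose from 2.43 to 32.4 FPKM, the receptor RARG from 5.44 to 21.9, the carrier CRABP2 from 133 to 363 and the retinol transporter STRA6 from 4.70 to 10.6. ALDH1A2, the main synthetic enzyme of mesoderm, was under the filter at 0.03 and 0.06. Of 28 CDX and HOX genes, which give cells their position along the trunk, 5 passed the filter. Of these 2 fell, CDX1 among them, and HOXB2 rose, from 0.07 to 1.71, while CDX2, at 12.4 and 5.90, was not called. The summed level of the list was 46.9 FPKM on day 1 and 11.3 on day 2.

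**Figure D4:**
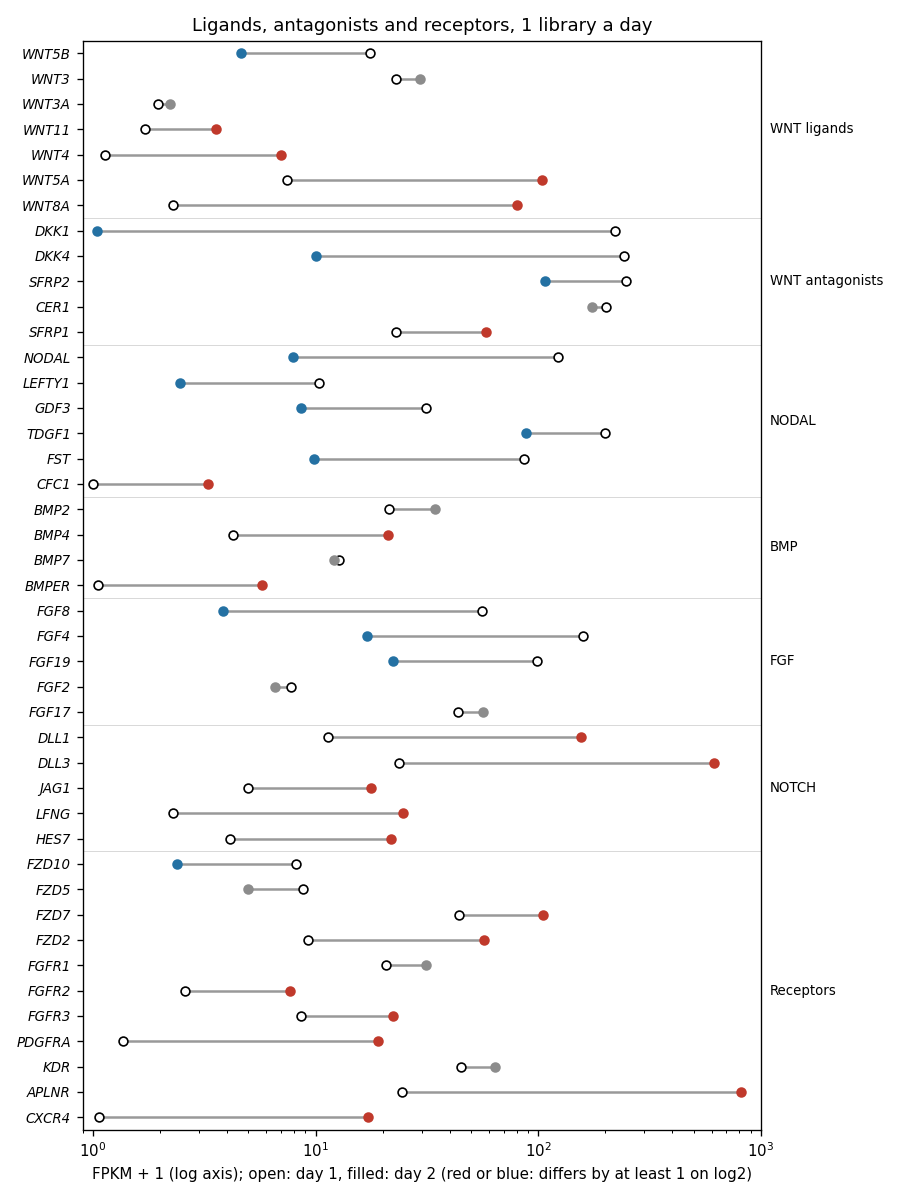
FPKM + 1 on a log axis on day 1 (open circle) and day 2 (filled circle) for ligands, antagonists and receptors by pathway, 1 library a day; red and blue mark differences of at least 1 in log2(FPKM + 1) upwards and downwards, grey smaller ones. NODAL, FGF8 and DKK1 lie far to the left on day 2, and WNT5A, WNT8A, DLL1, DLL3 and APLNR far to the right.

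Of 18 measured pluripotency genes 7 fell and none rose, with a median of -0.68. NANOG fell from 18.4 to 3.92 FPKM, 4.70-fold lower (4.22 to 5.23), and UTF1 from 30.9 to 6.92. The retrotransposon-derived L1TD1 fell from 98.3 to 34.7, the long non-coding ESRG from 131 to 45.8, and the telomerase gene TERT from 6.01 to 2.32. POU5F1, the central factor of the network, fell from 501 to 241, a difference of -1.05 that was -0.97, under the call, when FPKM was rescaled to TPM. SOX2, at 7.12 and 8.47, was not called. It had been at 97.1 FPKM on day 0, and it lies inside SOX2-OT, whose reads may not be told apart from its own. LIN28A, at 365 and 321, LIN28B, at 31.6 and 34.1, DNMT3B, at 157 and 95.2, DPPA4, at 103 and 64.7, and SALL4, at 40.4 and 66.4, were not called.

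Of 17 measured epithelial genes 5 fell and 1 rose (median -0.63). CLDN7, a tight junction claudin, fell from 59.1 to 19.0 FPKM, the epithelial splicing factor ESRP2 from 7.95 to 2.09, the adhesion protein EPCAM from 77.1 to 37.2 (not called on the TPM scale), the polarity genes CRB3 from 7.46 to 3.09 and LLGL2 from 15.2 to 6.87. CDH1, the E-cadherin gene, was at 79.8 and 49.6 and was not called. The keratin KRT19 rose from 38.3 to 218. Of 14 measured mesenchymal genes 9 rose and 1 fell (median 1.34). SNAI2, TWIST1 and ZEB2, which were among those that rose, passed the filter only through day 2. The factors TWIST1 and ZEB2 rose from 0.14 to 8.28 and from 0.20 to 2.77 beside SNAI1 and SNAI2, VIM from 9.20 to 30.6, the protease MMP14 from 44.3 to 109 and SPARC from 58.0 to 144. CDH2, the N-cadherin gene, fell, from 54.9 to 23.7, so both CDH1 and CDH2 were lower on day 2, while CDH11 rose.

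Matrix genes rose in a subset. Of 25 measured members 8 rose and none fell (median 0.39). The fibrillar chain COL5A1 rose from 6.94 to 67.8 FPKM, a ratio of 9.76 (9.25 to 10.3), the microfibril gene FBN2 from 29.7 to 133, tenascin TNC from 1.2 to 13.2, the hyaluronan link protein HAPLN1 from 1.06 to 8.52, COL9A2 from 2.53 to 13.04, COL1A2 from 14.7 to 40.2, COL5A2 from 11.4 to 31.5 and the basement membrane nidogen NID2 from 1.03 to 3.37. The basement membrane chains LAMA1, at 18.4 and 19.8, LAMB1, at 19.4 and 18.1, LAMC1, at 49.8 and 65.5, and COL4A1, at 12.8 and 13.1, were not called, and neither was FN1, at 20.3 and 27.7. Of 10 measured integrins 3 rose and 1 fell (median -0.11). ITGA5, the fibronectin receptor chain, rose from 5.91 to 77.6, 13.1-fold (12.2 to 14.1), ITGA9 from 2.37 to 10.9 and ITGA8 from 0.02 to 2.02. ITGA6, a laminin receptor chain, fell from 11.1 to 4.81, while ITGB1, the shared partner of these chains, was at 25.8 and 32.9 and was not called.

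Few cell cycle genes and no sterol genes were called. All 19 genes of G2 and mitosis were measured and none was called, with a median of 0.24. Of 21 measured genes of G1 and S phase none fell and CDKN1A, an inhibitor of cyclin-dependent kinases, rose from 3.91 to 16.8 FPKM. The other 20 were not called and their list had a median of -0.30, with PCNA at 185 and 122, MCM5 at 35.5 and 22.1 and RRM2 at 30.8 and 15.1. The difference of RRM2 was -0.98, and -1.01 with scaling by the median of ratios, where it would count as a fall. None of 23 sterol synthesis genes was called (median 0.06), and none of 11 measured immediate early genes (median -0.17).

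Of 24 measured members of the glycolysis and hypoxia list 7 rose and none fell (median 0.72). LDHA, which makes lactate, rose from 152 to 313 FPKM, PGK1 from 133 to 301, the pyruvate kinase PKM from 111 to 257, the hexokinase HK1 from 17.9 to 49.7 and ALDOC from 23.9 to 56.1. The prolyl hydroxylase subunit P4HA1 rose from 33.3 to 68.8 and NDRG1 from 0.24 to 1.99. GAPDH, at 1427 and 1624, ENO1, at 495 and 699, SLC2A1, at 33.5 and 61.6, and PDK1, at 25.7 and 25.4, were not called, and neither was SLC2A3, at 161 and 143. In Day-3-NP-ctrl LDHA was at 55.5 and PGK1 at 53.8, below their levels on days 0, 1 and 2.

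Of 14 measured genes that FOXO factors raise or insulin lowers, 4 rose and none fell (median 0.36), namely TXNIP, from 18.6 to 74.4 FPKM, SESN3, from 4.03 to 20.9, GADD45A, from 8.87 to 31.6, and CITED2, from 27.1 to 87.6. IRS2, at 6.28 and 8.06, and INSR, at 3.16 and 4.35, were not called, and IGFBP1 was at 0. Of 15 measured ATF4 stress genes 1 rose and 2 fell (median -0.37). DDIT4, an inhibitor of mTORC1, rose from 14.2 to 120.2, and the serine synthesis enzyme PSAT1 fell from 139 to 49.8 and CHAC1 from 3.65 to 1.32. Of 12 reference genes 11 were not called, among them ACTB, at 749 and 722, TBP, at 10.2 and 11.8, and RPLP0, at 657 and 599, and the exception was the glycolytic PGK1. The median of the 12 was -0.08. Over the 30 lists together, 400 of 546 genes passed the filter, and 89 rose and 44 fell.

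**Figure D5:**
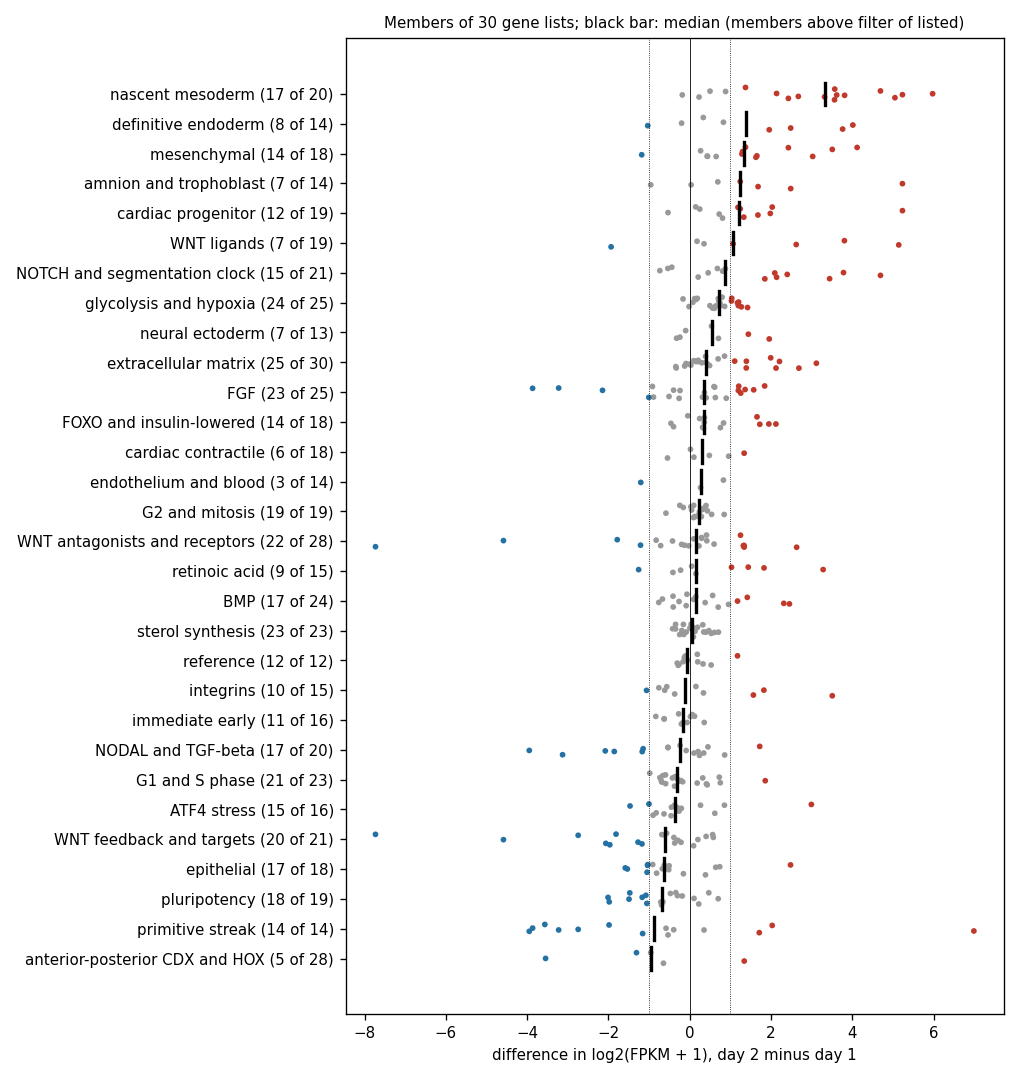
Difference in log2(FPKM + 1), day 2 minus day 1, of the members of 30 gene lists that passed the filter (each point is a gene, the black bar the median of the list, dotted lines the call threshold of 1), ordered by median, with the members measured and listed in parentheses. The median runs from 3.32 for nascent mesoderm to -0.96 for the CDX and HOX genes, and the mitosis and sterol lists hold no point beyond the dotted lines.

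The non-coding genes with the largest changes lay in part beside coding genes that moved the same way. LHX1-DT, a long non-coding RNA on the opposite strand 115 bases from LHX1 (chr17:36861674-36936670), rose from 0.23 to 16.8 FPKM. ENSG00000276707, which lies within LHX1 on the other strand, had 0 counts on day 1 and 239 on day 2, and ENSG00000283689, which overlaps IRX3, went from 1 count to 337. Since no source says whether strand entered the counting, reads of these overlapping pairs cannot be told apart. LINC01124 fell from 32.7 to 2.75 FPKM and lies 770 bases from SP5 (chr2:170712451-170714567). HPAT5, a transcript known from pluripotent cells, fell from 55.8 to 5.46, and the pseudogene KRT16P1, whose reads may be shared with related keratin genes, from 11.3 to 1.02.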

How the data were processed

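Bulk RNA sequencing libraries of H1 cells from days 0, 1, 2 and 3 (NP-ctrl) were used, with samples and days taken from the labels. Per the submitters' processing notes and the study's methods, the authors trimmed reads with Cutadapt 1.9.1, aligned them to hg38 with Hisat2 2.0.1 and counted them per gene with HTSeq 0.6.1. The deposited counts are whole reads per Ensembl gene, and the deposited FPKM values are those counts scaled by the deposited exonic length of the gene and the total count of the library; recomputed values differed by at most 0.005. The methods name a long-read kit beside these short-read tools, so the kind of read is unresolved. This touches comparisons of levels between genes, and the filter, the calls and the switching rule, which use FPKM. It does not touch the ratio of a gene between days. The annotation and the use of strand are not given in the sources used here. By identifier, 60463 genes matched GENCODE release 44 on GRCh38, 93.8% of them with identical coordinates, and 1506 genes without a symbol were named from a table of identifiers.

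Genes reaching an FPKM of 1 in either library were compared on log2(FPKM + 1) with a pseudocount of 1, and a difference of at least 1 was called. For the ratio, the share of a gene's counts that fell in the day 2 library was given an exact 95% (Clopper-Pearson) interval, which was turned into an interval of the ratio. A library at 0 counts was set to 3 counts and the fold given as a bound, and no fold was given where both libraries had 3 counts or fewer. PCR copies of a molecule are counted as separate reads, so intervals cover counting error only. The named genes were the 15 protein-coding genes with the largest rise and the 15 with the largest fall in log2(FPKM + 1) among those with at least 30 counts in the higher library, the 10 each way with the largest fold between an FPKM under 1 and at least 5, and the 3 each way of other biotypes. In each list the members with the largest differences (at most 6 each way), those at the highest level and the factors, ligands and receptors the list is named for were also named. The comparison, the gene lists and the motifs were chosen with earlier results of these data known. The code for calls and intervals was run on simulated counts with counting error only. The planted changes lay in genes of higher level, so calls of low genes were not checked, and neither was variation between cultures. Alternatives were other scalings (median of ratios, TMM from edgeR 4.0.16 in R 4.3.3, and TPM), a pseudocount of 0.1, other filters and thresholds. Python 3.11.15 with pandas 2.3.3, numpy 2.4.6, scipy 1.17.1 and matplotlib 3.10.9 was used. Some members of the lists are counted but not reported here by name.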

Additional observations from a re-analysis of the deposited data

How the results depend on the processing

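Against 920 genes that rose and 564 that fell, the counts were 896 and 594 with scaling by the median of ratios, 879 and 611 with TMM, 1613 and 810 on the TPM scale, 1618 and 1050 with a pseudocount of 0.1, 435 and 291 with a filter at an FPKM of 5, 159 and 52 at a difference of at least 2, 508 and 308 for protein-coding genes alone, 645 and 366 with at least 30 counts in the higher library, and 854 and 463 where the exact interval lay wholly beyond 2-fold. The TPM values are 3.57 and 3.79 times the FPKM values, so a pseudocount of 1 weighs less on that scale. Its median difference over all genes was 0.09, and 66.6% of its calls were rises, against 62% on FPKM and 59% with TMM. Of 161 named genes and list members that were called, all 161 stayed called with the median of ratios and with a pseudocount of 0.1, and 159 on the TPM scale, where POU5F1 and EPCAM were lost. None of the 161 changed its sign under these 3 settings. Of the genes that were not called, 1 (RRM2, -1.01) passed with the median of ratios, 14 on the TPM scale and 17 with a pseudocount of 0.1. Among those named as not called, FOXF1 (1.09 and 1.04), NOTCH2 (1.05 and 1.00) and MYL7 (2.09 and 3.00) passed under both of the last settings. GABRP (1.108 and 1.185) did so too. RRM2 (-1.03) and CDX2 (-1.06) passed with the pseudocount of 0.1. The median changed its sign with the filter at 5 for the lists of endothelium and blood, WNT antagonists and receptors, and integrins, and on the TPM scale for the reference genes. With 1 library a day no replicate could be left out. No paired analysis was possible because each day has 1 library and no value comes from a test.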

Other observations

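Guidance receptors, protocadherins and secreted proteases, which are on none of the gene lists, held several of the larger changes, and these families were chosen after the values were seen. Of all protein-coding genes measured 4.35% rose and 2.64% fell, and these shares stand beside each family count below. In families chosen likewise, 1 of 8 measured ADAM genes rose and 1 fell, and neither of 2 measured FLRT genes was called. Of 6 Iroquois factors 5 passed the filter and 3 rose. IRX3 and IRX5, and SEMA6D among the semaphorins below, passed it only through day 2. IRX1 rose from 11.6 to 26.2 FPKM beside IRX3 and IRX5, and IRX2, at 21.2 and 22.9, and IRX4, at 10.9 and 9.85, were not called. Of 20 semaphorins, ligands that repel or guide moving cells, 18 passed, and SEMA6D, SEMA3F (from 12.1 to 53.1 FPKM) and SEMA5B (from 1.53 to 6.48) rose while SEMA3C fell from 2.49 to 0.39. Of their receptors, 6 of 9 plexins passed and PLXNA2 rose from 2.80 to 55.4 FPKM, a ratio of 19.8 (18.4 to 21.4). Among the ephrins and Eph receptors, which keep cell populations apart, EFNB1 rose from 5.76 to 54.8 and EPHB3 from 5.90 to 42.0, each the only called member of 8 ephrins and 9 Eph receptors measured. The median difference was -0.04 over the ephrins and -0.35 over the Eph receptors. EPHA1, at 38.1 and 18.8, and EPHA2, at 57.0 and 28.6, were just under the call, with differences of -0.98 and -0.97.

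Of 12 protocadherins outside the gene clusters 8 passed the filter and 4 rose, and all 4 of these passed only through day 2. PCDH7 rose from 0.62 to 12.4 FPKM, PCDH8, a gene of presomitic mesoderm, from 0.04 to 5.79, and PCDH17 from 0.16 to 2.07, beside PCDH19. PCDH10, the highest of them at 32.7 and 43.9, was not called. Of 19 ADAMTS proteases 13 passed, 4 rose and 2 fell. Of the 4 that rose, all but ADAMTS3 passed only through day 2. ADAMTS9 rose from 0.67 to 13.7 FPKM, ADAMTS3, which processes procollagen, from 2.40 to 14.1 and ADAMTS12 from 0.45 to 1.91 beside ADAMTS15, while ADAMTS19 fell from 33.4 to 14.9 and ADAMTS16 from 3.88 to 1.22. Of 8 measured SLC7 amino acid transporters only SLC7A5, the large neutral amino acid carrier, was called, and it fell from 141 to 32.0 FPKM, 4.39-fold lower (4.22 to 4.56). It had been at 139 on day 0. Of 31 measured potassium channel genes, 7 rose and 1 fell, beside 4.35% and 2.64% of all protein-coding genes measured. All 7 that rose were under an FPKM of 1 on day 1 and passed the filter only through day 2.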
